A study of Mus musculus with 4 samples.

Results

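C4b-negative mature oligodendrocytes were examined in Gclc-KO mouse cortex by single-nucleus RNA-seq. A nucleus was kept when it had no more than 7000 detected genes and mitochondrial transcripts made up no more than 1% of its UMIs (unique molecular identifiers, each counting 1 captured RNA molecule). Members were chosen by their own UMIs of 12 genes. They were the kept nuclei with a UMI of at least 3 of the 6 oligodendrocyte genes Mog, Mobp, Aspa, St18, Prr5l and Mag, and with 0 UMIs of the neuronal genes Slc17a7, Gad1 and Gad2, of Pdgfra (precursors), of Csf1r (microglia) and of C4b (complement component 4B, on chromosome 17 from 34728380 to 34743882, minus strand, GRCm38). This rule chose 2976 of 30515 kept nuclei (9.75%), 726 and 741 in the 3-month mice and 916 and 593 in the 6-month mice. The 6 marker genes and C4b therefore describe the choice and are not results.

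The 4 mice, 2 aged 3 months and 2 aged 6 months, all carried the Gclc-KO genotype, made by crossing floxed GCLC mice with a CaMKII-Cre line whose recombinase acts in forebrain neurons. GCLC is the catalytic subunit of the enzyme that starts glutathione synthesis, so the deletion is aimed at neurons and not at the oligodendrocytes described here. No wild-type library was analysed here, and each value therefore compares ages or nuclei within knockout cortex. The labels number the replicates 1 and 2 at each age and give the same number as the batch. The tissue was taken from cortical regions rich in rod-shaped microglia, and the study took separate mice at the 2 ages. The title of each library names 1 mouse.

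Oligodendrocytes wrap axons in myelin, a stack of membrane rich in cholesterol, galactolipids and a few abundant proteins. They arise from precursors that carry Pdgfra and pass through a short differentiating stage before the myelin genes reach their full level. In diseased or aged brain some mature oligodendrocytes switch on C4b together with Serpina3n and antigen-presentation genes, and the nuclei below are those in which no C4b RNA was captured.

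The gate genes show where the members lie within the rule, which fixed high shares for them. Of the members, 96.3% had a UMI of St18, 92.5% of Prr5l, 88.8% of Mobp, 86.9% of Mag, 82.8% of Mog and 78.4% of Aspa. Nuclei with 5 or 6 of the 6 genes made up 81.6% of the members, and 168 nuclei stood just inside the rule with 3 genes while 104 nuclei stood just outside with 2. The label was checked on oligodendrocyte genes that the rule did not use. The comparison was with excitatory neuron-gated nuclei, which held Slc17a7, 0 UMIs of Gad1, Gad2, Pdgfra and Csf1r, and fewer than 2 of the 6 gate markers. Cldn11, the tight junction protein of myelin, stood at 322 to 444 CPM (UMIs of the gene per 1000000 UMIs of the class in a mouse) in the members and at 0.759 to 2.00 CPM in those nuclei. Myrf, the transcription factor of myelin genes, stood at 160 to 203 CPM and 0.357 to 1.54 CPM. The limit on gate markers in the neuron-gated nuclei sets part of this difference. Median depth of the nuclei with 3 gate genes was 1261 and 978 UMIs at 3 months and 1335 and 1672 UMIs at 6 months. On the C4b side, 534 of the 961 nuclei that the last criterion removed held a single C4b UMI. A nucleus with 0 C4b UMIs is therefore one in which C4b was not captured at its depth, and C4b-negative does not show that the gene was silent.

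Members summed to 7193331 UMIs, that is 2128895 and 1476929 at 3 months and 2084309 and 1503198 at 6 months. The median member held 2821 and 1698 UMIs at 3 months and 1941 and 2131 UMIs at 6 months. The CPM levels are not corrected for gene length. Malat1, a nuclear long non-coding RNA, took 13.4% of the UMIs on average. The myelin gene Mbp (4676 ± 433 CPM, mean ± SD, n = 4 mice) was among the 20 genes with the most UMIs, together with Nkain2, Slc24a2, St18, Pex5l, Dock10 and Edil3. In excitatory neuron-gated nuclei of the same mice, Mbp stood at 68.3 to 88.3 CPM, and whether that level is free RNA or expression was not tested. The marker lists of other cell types were not at 0 in the members. Inhibitory neuron genes summed to 1585 to 1954 CPM, most of it Erbb4 (mean 1457 CPM), against 105 to 154 CPM in excitatory neuron-gated nuclei. Excitatory neuron genes summed to 1327 and 2937 CPM at 3 months and 2633 and 2743 CPM at 6 months, against 23367 to 24503 CPM in excitatory neuron-gated nuclei, and Kcnip4 was the most abundant of them in both.

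The first 3-month library stood apart from the other 3. Its excitatory neuron sum was the lowest, its heat shock gene sum was 1168 CPM against 1726 to 2215 CPM in the others, and the ribosomal-RNA-related transcript Gm42418 reached 603 CPM against 3350 to 4069 CPM. Only 93 barcodes of 30784 occurred in more than 1 library. Xist was present at 1712 to 1817 CPM in the members of each mouse. Gclc itself, on chromosome 9 from 77754535 to 77794485, stood at 39.9 and 25.7 CPM at 3 months and at 34.5 and 33.3 CPM at 6 months in the members, and at 33.2 to 41.9 CPM in excitatory neuron-gated nuclei. UMIs are read near the 3′ end of a transcript and need not cover the deleted part, so these levels do not check the genotype.

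The share of members among kept nuclei overlapped between the ages. It was 10.7% (Wilson 95% interval 9.96 to 11.4) and 8.47% (7.90 to 9.07) at 3 months and 11.3% (10.6 to 12.0) and 8.65% (8.01 to 9.34) at 6 months. The ranges overlapped, and the mean difference of 0.403 percentage points was smaller than the spread between replicates (exact two-sided permutation test, p = 0.667, where the smallest possible p is 0.333). The difference was -0.70 points without the second 3-month library and -0.92 points without the first 6-month library. It was 1.51 points without the first 3-month library and 1.72 points without the second 6-month library. After nuclei were thinned at random to 1000 UMIs the shares were 11.6% and 7.73% at 3 months and 14.0% and 12.5% at 6 months, a difference of 3.56 points with no overlap (exact p = 0.333, the smallest possible). Nuclei with fewer UMIs were left out of the thinned counts. Of the members, 96.6% and 85.0% at 3 months and 97.9% and 99.0% at 6 months were deep enough. The loss was thus largest in the second 3-month library, and its part in that difference was not tested. The rule was applied again to the thinned counts, so members then include nuclei that lost their C4b UMIs, and the C4b-positive nuclei at 6 months numbered 298 and 254 instead of 473 and 410. The share of gate nuclei that did hold a C4b UMI was 6.68% and 3.39% at 3 months and 34.1% and 40.9% at 6 months, as a description of what the rule removed. In gate nuclei chosen at full depth and then thinned these shares were 2.79%, 2.44%, 21.3% and 23.1%, against 0% at 3 months and 0.142% and 0.261% at 6 months in excitatory neuron-gated nuclei. The whole gate, with and without C4b, covered 11.4% and 8.77% of nuclei at 3 months and 17.1% and 14.6% at 6 months. Intervals cover counting error only, and shares of nuclei depend on dissection and sorting, which were not tested here.

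**Figure D1:**
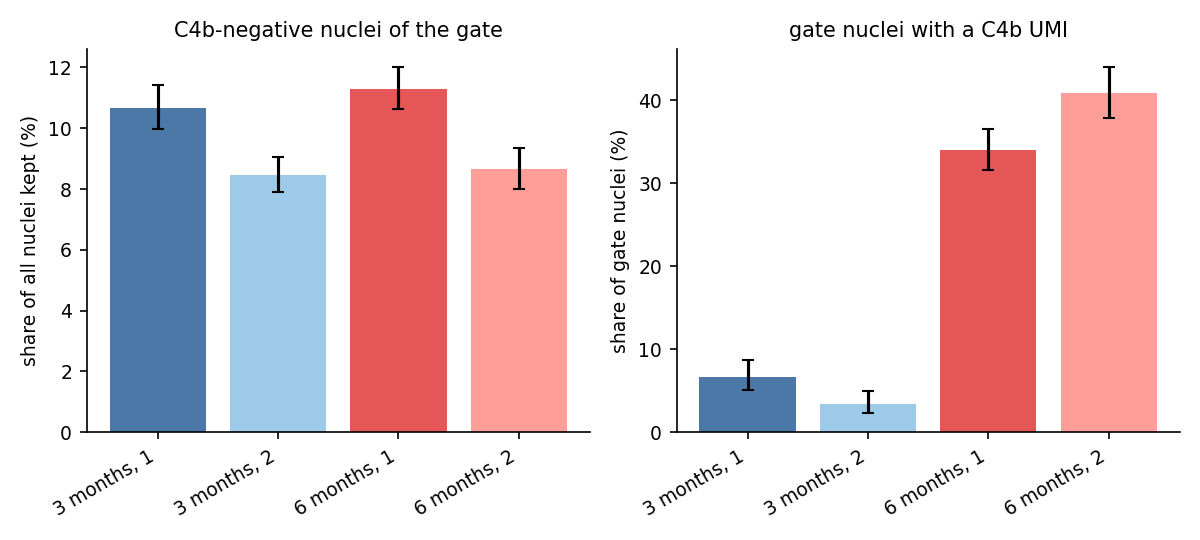
Bars give the share of kept nuclei that were C4b-negative mature oligodendrocytes (left, %) and the share of gate nuclei with at least 1 C4b UMI (right, %) in each library, labelled by age and replicate, with Wilson 95% intervals. C4b-negative shares overlapped between ages (8.47% to 11.3%), while the C4b share, which the rule used, was 3.39% and 6.68% at 3 months and 34.1% and 40.9% at 6 months.

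The ages were then compared within the members. No gene of 11567 passed an adjusted p of 0.05 in edgeR's quasi-likelihood test on the 4 sums (smallest adjusted p = 0.502, 597 genes at an unadjusted p under 0.05). DESeq2 called 5 genes. The 3-month and 6-month values did not overlap for 35.5% of genes, with 23.1% higher and 12.4% lower at 6 months, and this share is the background for the counts that follow. The number of calls depended on the library left out: 141 genes passed without the first 3-month library, 1113 without the second, 16 without the second 6-month library and 0 without the first 6-month library, in fits where the lone mouse of an age is assumed to vary like the other age.

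Genes of the disease-associated oligodendrocyte list, all 20 summed, stood at 1801 and 1672 CPM at 3 months and at 2262 and 2247 CPM at 6 months. Of the 14 that reached the filter on low counts, 13 had a positive log2 fold change and 8 had no overlap between ages (median 0.44 against 0.0036 over all genes). A gene low at 3 months can reach that filter through its 6-month counts alone, so the direction of such genes is partly set by it. Serpina3n, a secreted protease inhibitor, stood at 1.41 and 0.677 CPM at 3 months and at 6.24 and 12.6 CPM at 6 months. Both 6-month values lay above both 3-month values, on only 36 UMIs in all (log2 fold change 2.89 ± 0.74, SE, edgeR adjusted p = 0.774). H2-D1, a classical MHC class I heavy chain, stood at 1.41 and 7.45 CPM and then at 19.7 and 17.3 CPM, and B2m, its light chain, at 0.470 and 4.06 CPM and then at 8.64 and 10.6 CPM. H2-D1 and B2m also did not overlap between ages, and the MHC class I list, all 17 genes summed, stood at 47.0 and 63.6 CPM at 3 months and at 102 and 110 CPM at 6 months. Of these 17 genes only 8 reached the filter, all with positive log2 fold changes. Among these, 4 did not overlap upwards, H2-D1, B2m, Psmb10 and Nlrc5, beside 23.1% of all genes. H2-K1, the most abundant gene of the list (mean 13.0 CPM), was not among the 4. Apod, a lipid-binding apolipoprotein, stood at 339 and 479 CPM at 3 months and at 831 and 602 CPM at 6 months (log2 fold change 0.74 ± 0.24, adjusted p = 0.909). Il33, an alarmin cytokine stored in the nucleus, was at 488 and 332 CPM and then at 552 and 532 CPM. Its log2 fold change was 0.30, and -0.022 without the second 3-month library.

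Of 27 antioxidant genes tested, 20 had a positive log2 fold change (median 0.25), 13 did not overlap upwards and 4 did not overlap downwards, Hmox2, Txn2, Prdx6 and Cat. Hmox2, a haem oxygenase and the most abundant of the list, stood at 132 and 116 CPM at 3 months and at 103 and 113 CPM at 6 months. The metallothionein Mt1 stood at 43.2 and 86.0 CPM at 3 months and at 127 and 119 CPM at 6 months, and the glutathione transferase Gstm1 at 9.39 and 10.8 CPM and then at 31.7 and 23.3 CPM. Of the 9 tested genes of glutathione synthesis, 5 were positive and 4 negative, with a median of 0.04. Several marker lists of other cell types had higher sums at 6 months as well. The microglia list summed to 70.0 and 116 CPM at 3 months and 134 and 200 CPM at 6 months, with 7 of 7 tested genes positive, and Gfap of the astrocyte list stood at 3.76 and 8.80 CPM and then at 17.8 and 18.0 CPM. The precursor list summed to 450 and 467 CPM and then to 586 and 643 CPM, with 5 of 6 tested genes positive and Vcan, Tnr, Pcdh15 and Sox6 not overlapping upwards. All 9 tested excitatory neuron genes were positive (median 0.20) and 3 of them did not overlap upwards, although their sum overlapped between ages, as did that of the inhibitory neuron list (1954 and 1585 CPM, then 1920 and 1823 CPM). The endothelial and mural list summed to 53.5 and 60.3 CPM and then to 50.9 and 51.9 CPM. Their part in the values above was not tested.

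Genes of myelin and its lipids were mixed. Of 27 myelin structure genes, 20 had a negative log2 fold change (median -0.14), 5 did not overlap downwards, among them Cldn11, Jam3 and Gpm6b, and 3 did not overlap upwards, Opalin, Gjb1 and Cd9. Over all genes these shares were 12.4% and 23.1%. Ugt8a, which makes galactosylceramide, stood at 519 and 569 CPM at 3 months and at 378 and 375 CPM at 6 months. Gal3st1, which sulfates that lipid, stood at 205 and 145 CPM and then at 99.3 and 124 CPM, and Fa2h, which hydroxylates its fatty acid, at 676 and 505 CPM and then at 442 and 418 CPM. In total 6 of 22 tested myelin lipid genes did not overlap downwards and none upwards, the others being Cers2, Sptlc2 and Elovl7. Adjusted p was 0.871 for Ugt8a and 0.909 for Gal3st1 and Fa2h, so none of these differences passed the test with 2 mice per age. Malat1, which took the largest share of UMIs, stood at 159788 and 142433 CPM at 3 months and at 119258 and 116430 CPM at 6 months, with no overlap.

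**Figure D2:**
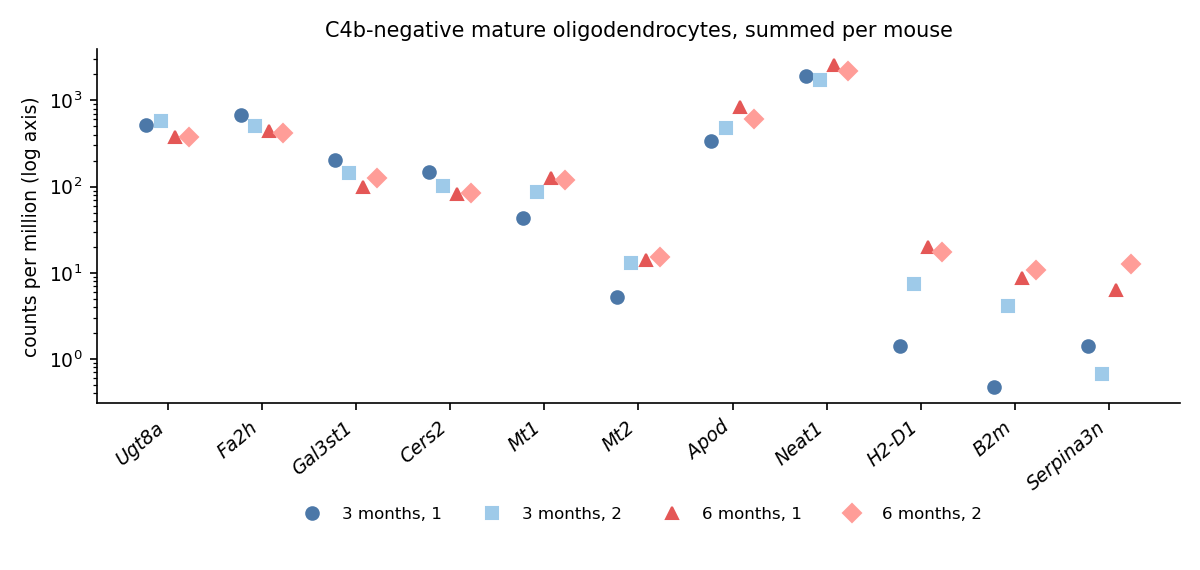
Points give the CPM (log axis) of 11 genes in C4b-negative mature oligodendrocytes, 1 point for each mouse, labelled by age and replicate. Both 6-month points of Ugt8a, Fa2h, Gal3st1 and Cers2 lay below both 3-month points and those of Mt1, Mt2, Apod, Neat1, H2-D1, B2m and Serpina3n above them, while no gene passed an adjusted p of 0.05.

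Members were next compared with the 961 nuclei of the same gate that held C4b, summed per mouse with the mouse as a block. These C4b-positive nuclei numbered 52 and 26 at 3 months and 473 and 410 at 6 months, with median depths of 2834, 1575, 2053 and 2572 UMIs. Of 11392 genes, 79 passed (0.693%), 25 higher in the C4b-positive nuclei (0.219%) and 54 lower (0.474%), that is higher in the members. C4b chose the classes and was left out of the test. In the test of the interaction between class and age 0 of 11392 genes passed in edgeR (smallest adjusted p = 0.317, 573 genes at an unadjusted p under 0.05) and 0 in DESeq2, against 50 in edgeR after thinning and 2 without the first 3-month or the second 6-month mouse. With 52 and 26 C4b-positive nuclei at 3 months this does not show that the class difference was alike at both ages.

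C4b-positive nuclei held more of 2 genes of the disease-associated oligodendrocyte list, Serpina3n and Il33, and of genes outside it. Neat1, the scaffold RNA of nuclear paraspeckles, stood at 1939, 1722, 2549 and 2181 CPM in the members, in the order of the 3-month and then the 6-month mice, and at 2959, 2468, 3457 and 3064 CPM in C4b-positive nuclei. It was higher in 4 of 4 mice (log2 fold change 0.46 ± 0.10, adjusted p = 0.00275). Serpina3n was higher by 1.76 ± 0.39 on the log2 scale (adjusted p = 0.00239) in 3 of 4 mice, with 36 UMIs in the members and 70 in the C4b-positive nuclei. Il33 was higher in 4 of 4 mice (0.48 ± 0.12, adjusted p = 0.0116), as were the iron carrier transferrin Trf (0.43 ± 0.11, adjusted p = 0.0124) and Apod (0.43 ± 0.11, adjusted p = 0.0338). Further genes higher in each mouse were Parp3, a DNA-repair poly(ADP-ribose) polymerase (2.02 ± 0.38), the small GTPase Rhoj (0.68 ± 0.13), the diacylglycerol kinase Dgki (0.50 ± 0.11), the mitochondrial folate enzyme Aldh1l2 (1.10 ± 0.25), Adamtsl1 (0.52 ± 0.12) and protein S, Pros1 (1.28 ± 0.32). All of these genes lost their call after thinning and, where tested, with no block for the mouse. Without the first 6-month mouse only Dgki and Aldh1l2 among them passed, and without the second only Neat1, Parp3 and Rhoj. Serpina3n did not reach the filter on low counts with no block and without the second 6-month mouse. Apod kept its call in 1 of 13 alternatives and Il33 and Trf in 4 of 13, with positive log2 fold changes throughout. Of the disease-associated list, 2 of 15 tested genes passed, Il33 and Serpina3n. None of the 27 myelin structure genes, 22 myelin lipid genes, 22 cholesterol synthesis genes or 27 antioxidant genes passed in either direction, with list medians of 0.04, -0.0043, -0.13 and 0.00086 beside a median of -0.03 over all genes. Of 8 tested glutathione synthesis genes 5 had positive log2 fold changes and 1 passed, Slc1a1, as lower in C4b-positive nuclei (-1.30). Slc1a1 kept its call in 4 of 12 alternatives. Of 31 interferon response genes 10 reached the filter on low counts, all with positive log2 fold changes (median 0.65), and none passed. Genes can reach that filter through the C4b-positive nuclei alone, so their direction is partly set by it. With no filter the whole list summed to 186, 253, 315 and 251 CPM in the members. In the C4b-positive nuclei it summed to 283, 475, 518 and 328 CPM. The 9 tested excitatory neuron genes and 6 tested astrocyte genes all had negative log2 fold changes (medians -0.21 and -0.23), and none of these passed either.

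**Figure D3:**
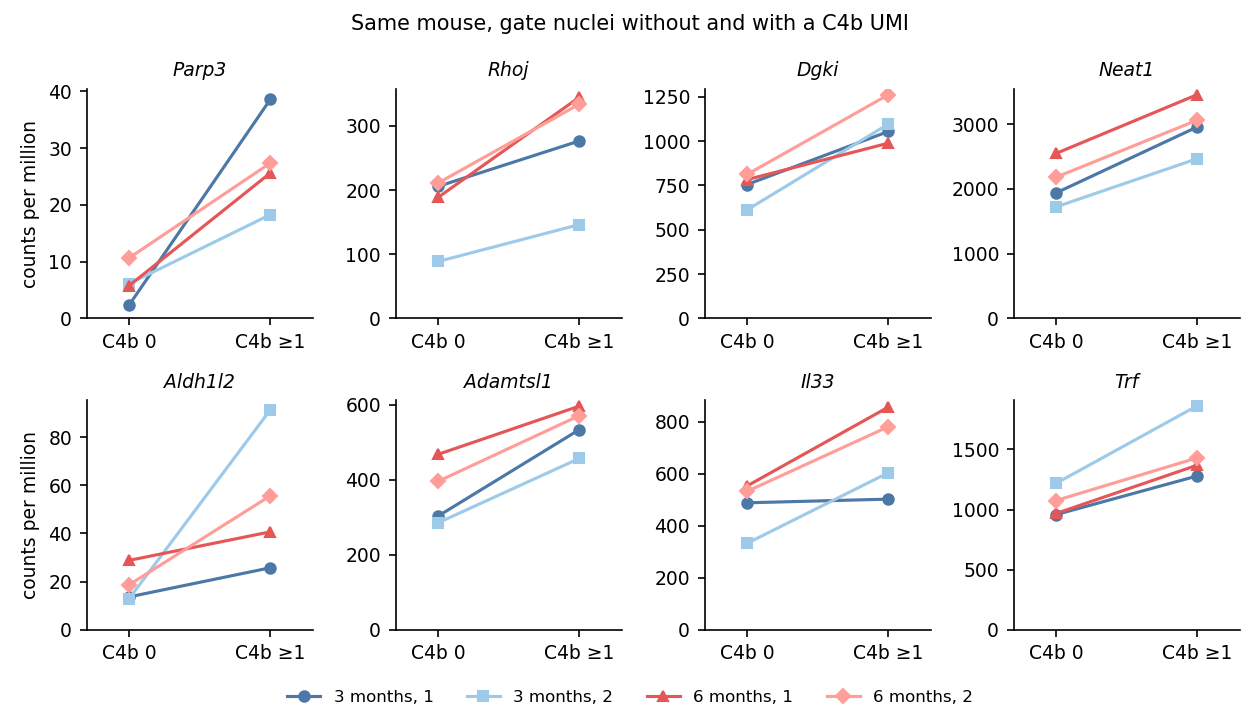
Each line joins the CPM of a gene in C4b-negative nuclei (C4b 0) and C4b-positive nuclei (C4b ≥1) of the same mouse, labelled by age and replicate, for 8 genes that passed the test. All 8 genes were higher in the C4b-positive nuclei in 4 of 4 mice, and the 3-month points of that class rest on 52 and 26 nuclei.

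The members in turn held more of several genes known from the differentiating stage, and of Tnr, which precursors also carry. The long non-coding RNA 9630013A20Rik, on chromosome 14 from 84458639 to 84476424 (minus strand, GRCm38, annotated as antisense), stood at 171, 198, 105 and 54.6 CPM in the members and at 12.9, 18.3, 15.9 and 12.8 CPM in C4b-positive nuclei (log2 fold change -2.65 ± 0.24, adjusted p = 1.93e-23). Tnr, the matrix glycoprotein tenascin-R, stood at 76.6, 133, 148 and 189 CPM in the members and at 0, 73.1, 61.9 and 24.6 CPM in C4b-positive nuclei (-1.98 ± 0.19, adjusted p = 3e-20). Frmd4a (-1.11 ± 0.13), the calcium channel Itpr2 (-1.46 ± 0.24) and the kinase Fyn (-0.65 ± 0.15) were also lower in C4b-positive nuclei in 4 of 4 mice, and the transcription factor Tcf7l2 in 3 of 4 (-0.86 ± 0.18). Fyn and Tcf7l2 each kept their call in 4 of 13 alternatives, Fyn losing it without the second 3-month or the first 6-month mouse and Tcf7l2 without either 6-month mouse. Of the differentiating oligodendrocyte list, 4 of 10 tested genes passed, all lower in C4b-positive nuclei, and the other 6 had negative log2 fold changes as well (median -0.54). Of the 6 tested genes of the precursor list, Tnr passed as lower and 4 had positive log2 fold changes (median 0.18).

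For 9630013A20Rik, Tnr and Frmd4a, most UMIs came from few nuclei. Frmd4a had a UMI in 851 of 2976 members, but 58 nuclei with 5 or more of its UMIs held 67.6% of them. Fyn was spread more widely, with a UMI in 646 members, and nuclei with 5 or more Fyn UMIs held 33.2% of them. Of the 956 UMIs of 9630013A20Rik in the members, 826 (86.4%) lay in 24 nuclei that held 5 or more of them, 7 and 7 at 3 months and 6 and 4 at 6 months. At 6 months, where most C4b-positive nuclei lie, 10 of 1509 members (0.663%) held 5 or more, and 0 of 883 C4b-positive nuclei did, which allows a share of up to 0.340% by counting error alone. The cut of 5 UMIs was set after the values were seen, and what follows is a description. The 24 nuclei held 2.29% of the members' UMIs but 631 of 953 Tnr UMIs, 366 of 707 Tcf7l2 UMIs and 207 of 391 Itpr2 UMIs. Their median depth was 5596 and 5500 UMIs at 3 months and 7166 and 8692 UMIs at 6 months, above that of the members, and they carried 3.57, 3.43, 3.67 and 4.50 of the 6 gate markers on average against 5.10 to 5.51 in the members. With a stricter exclusion of other cell types by further markers, 4, 5, 2 and 1 of these nuclei remained. In that setting Tnr, Frmd4a, Itpr2, Fyn and Tcf7l2 lost their calls between the C4b classes, and 9630013A20Rik kept its call. Whether doublets are among the 24 nuclei was not tested. Myelin genes were present in the 24 nuclei. Mbp stood at 10309, 7573, 5461 and 7157 CPM, against a mean of 4676 CPM in all members. Enpp6, a choline phosphodiesterase of newly formed oligodendrocytes, averaged 588 ± 213 CPM (SD, n = 4 mice), and Bcas1, a marker of early myelinating cells, 2231 ± 533 CPM. Genes of the fully mature nuclei were scarce: Il33 had 4 UMIs, Apod 3, Car2, a carbonic anhydrase, 6 and Neat1 33 in all 24 nuclei, where Il33 had 3478 and Apod 4066 in all members.

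**Figure D4:**
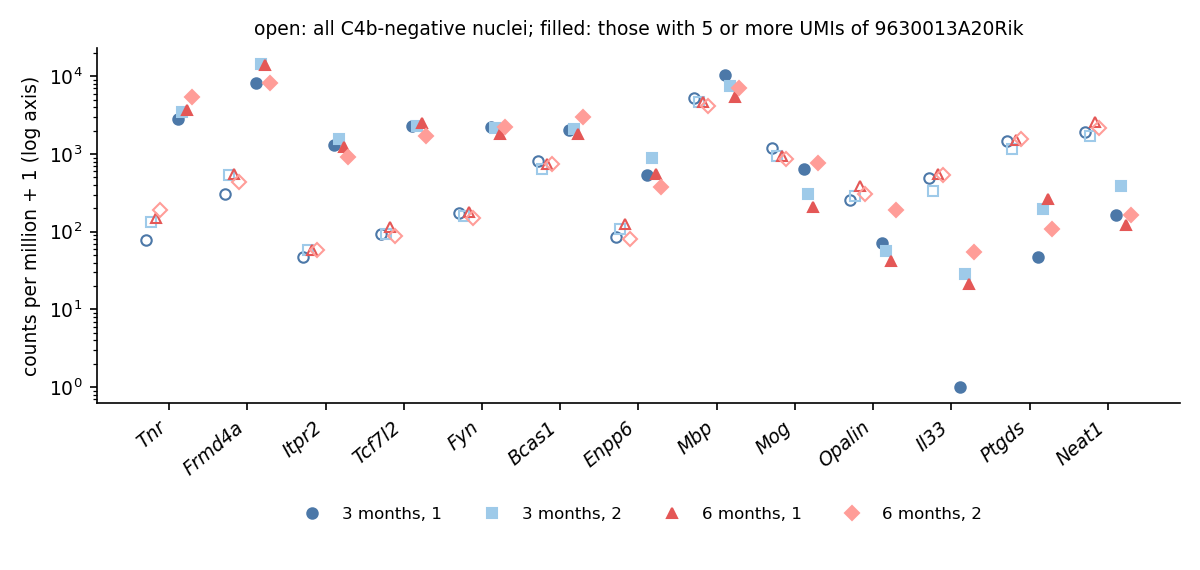
Open points give CPM + 1 (log axis) of 13 genes in all C4b-negative nuclei of a mouse and filled points in its nuclei with 5 or more UMIs of 9630013A20Rik (7, 7, 6 and 4 nuclei), labelled by age and replicate. Tnr, Frmd4a, Itpr2, Tcf7l2, Fyn, Bcas1 and Enpp6 were higher in the filled points of each mouse and Opalin, Il33, Ptgds and Neat1 lower.

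Without these 24 nuclei 24 genes passed between the C4b classes, 14 higher and 10 lower in C4b-positive nuclei, and the log2 fold changes of 9630013A20Rik, Tnr, Frmd4a, Itpr2 and Fyn were -0.42, -0.48, -0.0067, -0.58 and -0.18 with none past the threshold. Dpp10 (-0.68), Sgcz (-0.80) and Frmpd4 (-0.75) were among the genes that still passed as lower. Each of them lost its call without the deepest 10% of nuclei. Parp3, Rhoj, Dgki, Neat1, Aldh1l2, Adamtsl1 and Serpina3n still passed, while Il33 (0.44, adjusted p = 0.0662), Trf (0.40, adjusted p = 0.0659), Apod (0.40, adjusted p = 0.164) and Pros1 (1.25, adjusted p = 0.0529) no longer did, with log2 fold changes close to those with all nuclei. The count was also lower without the second 3-month mouse (51 genes), the first 6-month mouse (45) or the second (23), with DESeq2 (11), and at 0 after thinning to 1000 UMIs, where C4b-positive nuclei are fewer.

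Variation among the members was described along groups of mature oligodendrocytes known from mouse brain, marked by Klk6, Hopx and Anxa5 or by Ptgds and Il33. Nuclei with a UMI of Klk6, Hopx or Anxa5 numbered 127 (26 and 22 at 3 months, 47 and 32 at 6 months), those with none of these and a UMI of Ptgds or Il33 numbered 2401, and 448 members had neither. After thinning to 1000 UMIs, Ptgds, which makes prostaglandin D2, was seen in 59.9% and 55.1% of members at 3 months and in 65.8% and 69.0% at 6 months, against 0.758% to 3.61% of excitatory neuron-gated nuclei. Il33 was seen in 35.9%, 26.8%, 40.5% and 39.9%, and Apod in 25.7%, 35.2%, 41.9% and 42.9%. Klk6, a serine protease, was seen in 0.143%, 0.635%, 0.892% and 1.36% of members, where the share in excitatory neuron-gated nuclei was at most 0.0356%. Anxa5 was seen in 0.285% to 0.952% of members and 0.711% to 1.22% of excitatory neuron-gated nuclei, so these ranges overlapped. Whether the neuronal share is free RNA or expression was not tested. The classes were therefore compared also with Klk6 or Hopx alone as the mark.

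The Klk6, Hopx or Anxa5 nuclei differed from the Ptgds or Il33 nuclei in 305 of 8924 genes (3.42%), 176 higher (1.97%) and 129 lower (1.45%), with the mouse as a block and the 5 splitting genes left out. The first class was deeper in each mouse, with medians of 3553, 2076, 2398 and 2719 UMIs a nucleus against 2789, 1705, 1915 and 2114, and 276 genes passed without the deepest 10% of nuclei of each class. Enpp6 stood at 233, 372, 270 and 144 CPM in the first class and at 41.7, 70.5, 70.7 and 54.0 CPM in the second, with no overlap (log2 fold change 1.98 ± 0.24, adjusted p = 6.71e-07). Apod stood at 863, 987, 1603 and 1059 CPM against 267, 419, 618 and 526 CPM (1.25 ± 0.13, adjusted p = 9.76e-08), although Apod was listed beside Ptgds and Il33. Anln, a septin-binding protein found in myelin, was also higher (1.08 ± 0.14), as were the cell adhesion protein Cntn3 (1.70 ± 0.17), the ether lipid enzyme Agmo (2.23 ± 0.27), the talin Tln2 (1.73 ± 0.22), the tetraspanin Tspan9 (1.88 ± 0.25), Mob3b (1.47 ± 0.20), the transporter Slco3a1 (1.33 ± 0.17) and the adhesion receptor Adgrb3 (1.23 ± 0.16), each in 4 of 4 mice.

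Genes lower in the Klk6, Hopx or Anxa5 nuclei included membrane proteins of myelin. Opalin stood at 107, 48.6, 189 and 153 CPM against 290, 351, 447 and 334 CPM (log2 fold change -1.50 ± 0.21, adjusted p = 1.08e-05). Of 26 myelin structure genes, 6 were lower, Opalin, Cd9, Mal, Nfasc, Sept4 and Tspan2, and 1 was higher, Anln, with a list median of -0.19. Opalin and Anln kept their calls under all 11 alternatives, whereas Cd9 kept it in 3, Mal in 4 and Nfasc in 5, and Cd9 lost it on leaving out each of the 4 mice. The neuregulin receptor Erbb4 was lower by 1.27 ± 0.14 on the log2 scale in size (adjusted p = 2.05e-07), and Pex5l, an HCN channel subunit (-0.88 ± 0.12), the sulfate transporter Slc13a1 (-1.75 ± 0.24), Clmn (-1.17 ± 0.16), Fbxw15 (-1.50 ± 0.21) and the membrane protein Ano4 (-0.85 ± 0.13) were lower in 4 of 4 mice. Apoe, the lipoprotein of glial lipid transport, was lower too (-0.98 ± 0.18, adjusted p = 0.000521), as was the potassium channel Kcna1 (-0.72 ± 0.16).

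**Figure D5:**
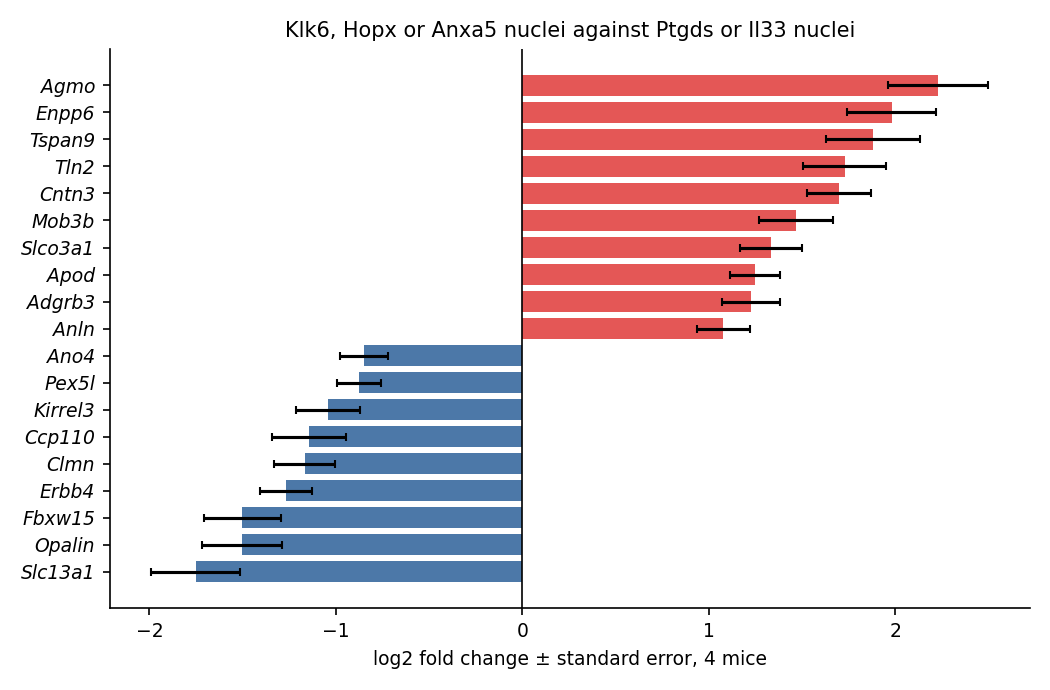
Bars give the log2 fold change and its standard error over 4 mice for 19 genes past the threshold, in Klk6, Hopx or Anxa5 nuclei against Ptgds or Il33 nuclei. Among the genes drawn, Agmo (2.23) and Enpp6 (1.98) head those that were higher and Slc13a1 (-1.75) and Opalin (-1.50) those that were lower. The non-coding A530053G22Rik (3.97) and Gm42756 (-1.63) also passed and are not drawn.

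Neuronal RNA moved with this comparison. The excitatory neuron list summed to 4254, 3221, 4094 and 4543 CPM in the Klk6, Hopx or Anxa5 nuclei against 1162, 2397, 2559 and 2517 CPM in the other class, with Kcnip4 the most abundant, and Kcnip4 (1.41 ± 0.19) and Celf2 (0.90 ± 0.16) passed as higher. With Klk6 or Hopx alone as the mark, 282 genes passed, 102 higher and 180 lower, of which 194 were among the 305. The log2 fold change of Kcnip4 was then -0.07, that of Celf2 -0.30 and that of the long non-coding RNA Meg3 -0.39, while Cntn3, Apod, Enpp6, Agmo, Slco3a1, Tln2, Anln, Tspan9, Mob3b, Erbb4, Opalin and Pex5l kept their direction and passed. The count was 178 without the first 3-month mouse, 139 without the first 6-month mouse, 195 without the second 6-month mouse and 142 with DESeq2. Frmd4a passed as higher (0.72 ± 0.20) and kept its call in 4 of 11 alternatives, and with Klk6 or Hopx alone it passed as lower (-1.21, adjusted p = 0.000179). It stood at 2217 CPM in the second 3-month mouse against 194 to 597 CPM in the other mice.

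Finally, members were set against 480 oligodendrocyte precursors of the same mice (144, 118, 126 and 92 nuclei), gated on Pdgfra with Vcan or Cspg4. Precursors could hold at most 1 of the 6 oligodendrocyte gate genes and 0 UMIs of Slc17a7, Gad1, Gad2 and Csf1r. The genes of both gates were left out. Members needed at least 3 of the 6 genes, so the gates chose in opposite directions on them. The direction of myelin and precursor genes that go with the gate genes is therefore partly set by the choice. Of 11821 genes, 5297 passed (44.8%), 2480 higher (21%) and 2817 lower (23.8%) in the members, and counts over a list are read against these shares. Of 27 myelin structure genes 23 were higher and 1, the tetraspanin Cd9, lower (list median 3.96 against 0.03 over all genes). Mbp stood at 46.4, 41.0, 36.6 and 38.8 CPM in the precursors (log2 fold change 6.99 ± 0.17, adjusted p = 1.78e-15). Neat1, which separated the C4b classes, was at 16.6, 12.8, 34.6 and 15.5 CPM in the precursors (6.85 ± 0.20), and Il33 had 0, 2.57, 0 and 10.3 CPM. Of the myelin lipid list 13 of 23 tested genes were higher and 3 lower, with Fa2h at 2.69 ± 0.15 and Ugt8a at 2.38 ± 0.18, and 9 of 20 cholesterol synthesis genes were higher and none lower. The transcription factors of mature cells Myrf (3.41 ± 0.20) and Nkx6-2 (7.11 ± 0.47) were higher, whereas Olig2 (-1.68 ± 0.16), Olig1 (-0.60 ± 0.15) and Sox10 (-0.57 ± 0.13), which act along the whole lineage, were lower in the members. Olig1 and Cd9 lost their calls after thinning to 1000 UMIs. The precursor genes Ptprz1, Lhfpl3, Sox6, Myt1 and Cspg5 were lower in the members by 4.97 to 7.13 on the log2 scale in size.

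Of 27 antioxidant genes 12 were higher in the members and none lower, so that the share called was near that of all genes and the calls lay in 1 direction. Among them were Nfe2l2, the transcription factor NRF2 (1.59 ± 0.36), the lipid peroxidase Gpx4 (1.53 ± 0.22), Mt1 (1.50 ± 0.19) and Gstm1 (1.61 ± 0.39). Of 9 glutathione synthesis genes, 3 were higher and 2 lower, beside 21% and 23.8% of all genes. Gclc (0.63 ± 0.24, adjusted p = 0.0396, a call kept in 3 of 11 alternatives), Gclm (1.25 ± 0.24) and Gss (2.64 ± 0.37) were higher, and the glutamate and cysteine transporter Slc1a1 (-2.53 ± 0.18) and Ggt7 (-0.80 ± 0.21) were lower. The interferon response list, summed with no filter, was lower in the members of each mouse. Of 31 on the list 19 reached the filter, against 8 in the age comparison within the members. Genes can thus reach it through the precursors alone, where they are high, and their direction is then partly set by it. Of the 19, 16 were lower in the members and 1, Xaf1, was higher. The whole list summed to 186, 253, 315 and 251 CPM in the members and to 501, 726, 850 and 481 CPM in the precursors, and the ranges did not overlap. The antigen-processing genes Tap2 (-3.41 ± 0.43), H2-D1 (-1.52 ± 0.39) and B2m (-1.35 ± 0.48) were lower in the members as well, although B2m lost its call on leaving out either 3-month mouse or the first 6-month mouse. H2-D1 lost its call after thinning to 1000 UMIs. In the precursor nuclei the astrocyte list summed to 845 to 945 CPM against 212 to 347 CPM in the members and the microglia list to 106 to 238 CPM against 70.0 to 200 CPM, and their part in these differences was not tested.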

How the data were processed

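Nuclei were isolated from cortex, sorted on DAPI and captured with a 10x Genomics 3′ kit. The deposited matrices hold UMI counts per gene and nucleus, which the authors made with Cell Ranger 7.0.0 (file headers) on mm10 (submitters' processing notes), 1 filtered matrix per library. No annotation of nuclei was used here, and classes were gated on the marker genes given in the report. No doublet caller was run, so doublets were limited by the exclusion genes and by alternatives that left out the deepest 10% of nuclei or further markers.

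Counts were summed per library and class and tested with edgeR 4.0.16 (R 4.3.3; TMM, filterByExpr, quasi-likelihood F test, Benjamini-Hochberg adjustment over all genes tested, threshold 0.05). The mouse was a block between classes and there was no block between ages. DESeq2 1.42.0 was an alternative, and the pipeline was tested on simulated data. Nuclei were never taken as replicates, and with 2 libraries per age the p-values measure only the spread between these libraries, which may be technical. Shares carry Wilson 95% intervals, which cover counting error only. Matrices were read with Python 3.11.15 and SciPy 1.17.1. Coordinates are from GENCODE M21 on GRCm38, where 32158 of 32285 gene identifiers matched.

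Genes were named from the 12 smallest adjusted p values in each direction among those past 0.05 and with no overlap (same sign in 4 of 4 mice between classes), from the 20 genes with the highest CPM, and from gene lists (myelin structure, myelin lipids, cholesterol, differentiating stage, disease-associated, MHC class I, interferon, antioxidant, glutathione, transcription factors, heat shock and markers of other cell types). Bcas1, Il33 and other list genes are named whether or not they passed. Gm42418 was singled out after its values were seen. The members and lists were chosen with earlier results of these data known. The labels have a batch field that holds the replicate number of each library, so the same number pairs a 3-month with a 6-month library, and the deviations of same-numbered libraries from their age means had a Pearson correlation of 0.0264 over 11567 genes. A few genes of these lists are not reported here by name.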

Additional observations from a re-analysis of the deposited data

How the results depend on the processing

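Counts of genes past the threshold moved with the libraries, the block, the tool and the depth. Between ages 0 genes passed, and with the replicate number as a block, which the labels' batch field repeats, 0 passed as well. The count was 5 with DESeq2, 103 without a filter on low counts, 1 (C4b itself) in all gate nuclei whatever their C4b, and 0 to 1113 when each replicate was left out. Between the C4b classes 79 genes passed, against 11 with DESeq2, 0 after thinning, 24 with at least 4 gate markers, 27 without the deepest 10% of nuclei, 14 with the stricter exclusion of other types, 2 with no replicate block and 23 to 69 without each replicate. Without the nuclei holding 5 or more UMIs of 9630013A20Rik, an alternative chosen after seeing the data, 24 passed. In the 6-month mice alone, also chosen after seeing the data, 109 passed. For members against precursors 2967 genes passed after thinning. For the Klk6, Hopx or Anxa5 nuclei 142 passed with DESeq2, 61 with no replicate block and 139 to 280 without each replicate. For the interaction, 50 passed after thinning and 0 to 2 without each replicate. The difference in share was 3.56 percentage points after thinning and -0.92 to 1.72 points without each replicate.

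In members against precursors no named gene reversed, and B2m, Cd9, Gclc, Ggt7, H2-D1 and Olig1 lost their call under some alternatives (17 values, the other 474 kept). Reversed log2 fold changes between ages were those of Gclc (0.38 without the first 3-month replicate, 0.30 after thinning, 0.078 without the deepest nuclei), Il33 (-0.022) and Ptgds (-0.10), both without the second 3-month replicate. Leaving out each replicate gave -0.41 to 0.38 for Gclc and -0.022 to 0.685 for Il33. Between C4b classes they were those of Dpp10 (0.0046), Pik3r3 (0.062) and Frmpd4 (0.18) without the deepest nuclei, Frmpd4 (0.29) with the stricter exclusion, and Pik3r3 (0.0135) and Tcf7l2 (0.13) without the 9630013A20Rik nuclei. Between the subtype classes, without the deepest nuclei, with the stricter exclusion and with Klk6 or Hopx alone, Celf2 gave -0.25, -0.23 and -0.30, Meg3 -0.47, -0.59 and -0.39 and Gria2 -0.49, -0.082 and -0.51. Kcnip4 (-0.066) and Frmd4a (-1.21) reversed with Klk6 or Hopx alone. The cause was not tested. The subtype comparison was not run after thinning, since a sum then held fewer than 10 nuclei (5 in the first 3-month library). Depth limits the C4b split, because a nucleus with few UMIs can hold C4b RNA that was not captured.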
